A study of Mus musculus with 70 samples.

Results

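Dendritic cells were followed through 9 genes that mark their subsets, chosen by symbol from the 55487 gene lines of the count tables and read in each of the 34 libraries of CD45+ cells. The genes were Xcr1, Clec9a and Batf3 of type 1 conventional dendritic cells (cDC1), Flt3 and Zbtb46 of conventional dendritic cells as a class, Cd209a of type 2 conventional dendritic cells (cDC2), Ccr7 and Fscn1 of mature, migrating dendritic cells, and Siglech of plasmacytoid dendritic cells (pDC). All 9 passed the filter on low counts in both tables of CD45+ cells.

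The cells came from young adult C57BL/6 mice of both sexes that carried a tumor of B16F10, a melanoma line of the mouse, on each flank. On 1 flank the tumor received a sham procedure (control) or partial histotripsy, which breaks tissue apart mechanically with focused ultrasound pulses. The histotripsy-treated group holds the ablated tumors themselves, and the histotripsy-abscopal group holds tumors left untouched on the other flank of treated mice. CD45+ (blood-derived) and CD45- cells were flow-sorted 3 or 7 days later and their RNA was sequenced by QuantSeq, which reads the end of each transcript next to its poly(A) tail. Day 3 had 4 control, 6 histotripsy-treated and 7 histotripsy-abscopal CD45+ libraries, and day 7 had 10, 3 and 4. The tumor line is 1 transplanted line that grows in a host with its full immune system, and CD45+ sorting leaves dendritic cells mixed with the other leukocytes of the tumor. The labels do not tie a library to a mouse, so histotripsy-treated and histotripsy-abscopal tumors of the same animal could not be matched, and p-values measure the spread between these libraries. Group assignment in the study was not randomized.

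Conventional dendritic cells take up antigen in tissue and present it to T cells: cDC1 cross-present antigen of dead cells to CD8+ T cells, and cDC2 mainly prime CD4+ T cells. On maturation, conventional dendritic cells display the chemokine receptor CCR7 and travel to the draining lymph node, and the actin-bundling protein fascin, encoded by Fscn1, accompanies that change of shape. Plasmacytoid dendritic cells are a separate branch, known for secreting type I interferon when they sense nucleic acids, and their identity depends on the transcription factor TCF4 (also called E2-2), an E protein that binds E-box DNA.

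CD45+ libraries held 887798 to 2824959 counts. A value in CPM below is a gene's count per 1000000 counts of its library after scaling by edgeR's TMM method. The library of histotripsy-treated replicate 3 on day 3 stood apart from the others, with the lowest TMM factor of the 34 libraries (0.766) and the lowest median correlation with its group (0.900). Ptprc, the gene of CD45, lay between 655 and 1227 CPM in CD45+ libraries and had between 0 and 3 counts in CD45- libraries, so each library carried the marker of its label.

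The genes that carry the main difference described below are Siglech, a sialic acid binding lectin on the surface of pDC, Ccr9, a chemokine receptor, and Klk1, a secreted serine protease. Their promoters are shown because the 3 genes moved together in the CD45+ libraries. Each line runs from 250 bases before to 50 bases after the RefSeq start on GRCm38.p6, 5′ to 3′ on the plus strand, with capitals at each E-box (CANNTG, which reads the same on both strands).
Siglech promoter, chr7:55767934-55768233: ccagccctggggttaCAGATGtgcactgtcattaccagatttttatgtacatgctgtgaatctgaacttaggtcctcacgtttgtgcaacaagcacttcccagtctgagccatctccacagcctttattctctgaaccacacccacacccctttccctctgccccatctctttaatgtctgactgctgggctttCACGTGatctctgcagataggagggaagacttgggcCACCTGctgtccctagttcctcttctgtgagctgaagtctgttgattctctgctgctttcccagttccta
Klk1 promoter, chr7:44225110-44225409: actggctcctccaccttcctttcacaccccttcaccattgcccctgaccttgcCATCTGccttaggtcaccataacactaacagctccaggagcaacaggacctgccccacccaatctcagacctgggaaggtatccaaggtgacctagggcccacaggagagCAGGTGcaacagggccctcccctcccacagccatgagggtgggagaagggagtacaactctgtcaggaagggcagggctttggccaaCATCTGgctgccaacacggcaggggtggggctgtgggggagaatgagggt
Ccr9 promoter, chr9:123766961-123767260: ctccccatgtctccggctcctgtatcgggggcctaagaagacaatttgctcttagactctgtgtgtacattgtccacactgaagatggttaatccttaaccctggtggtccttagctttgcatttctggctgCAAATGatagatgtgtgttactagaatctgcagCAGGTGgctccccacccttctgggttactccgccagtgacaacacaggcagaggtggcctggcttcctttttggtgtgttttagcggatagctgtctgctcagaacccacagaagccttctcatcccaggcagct
The Siglech and Klk1 promoters each held 3 E-boxes and the Ccr9 promoter held 2. The letters CANNTG occur in 72.3% of the 32851 promoters of this length, with a median of 1 match. The narrower form CAGGTG, read on either strand and contained in CANNTG, occurred 1 time in each of the 3 promoters and in 20.2% of all promoters. Among the 9 dendritic cell genes, 8 had a promoter in the table, and CAGGTG was present in those of Siglech and Zbtb46. A match is a stretch of letters and not a measured binding site.

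In CD45+ cells of histotripsy-treated tumors on day 3, Siglech was the 1 of the 9 genes that passed the threshold (adjusted p under 0.05) against control tumors, where 7.79% of all genes passed, and it was lower. Control libraries held 37.5, 43.3, 41.7 and 42.6 CPM, a narrow range. The 6 histotripsy-treated libraries ran from 8.05 to 37.7 CPM with a median of 14.5, and the 7 histotripsy-abscopal libraries from 12.5 to 46.1 CPM with a median of 23.4. Of the histotripsy-treated libraries, 5 lay below each control library, and the remaining library, replicate 2 with 37.7 CPM, overlapped the lowest control. The log2 fold change against control was -1.16 (standard error 0.350, 95% interval -1.89 to -0.43, quasi-likelihood test of edgeR, adjusted p = 0.0447 after Benjamini-Hochberg), or 44.7% of the control level. In a mixture of leukocytes, fewer cells of a type and less of a transcript per cell cannot be told apart. Siglech lies on chromosome 7 from 55768178 to 55778925 (GRCm38, plus strand) and overlaps no other annotated gene.

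**Figure D1:**
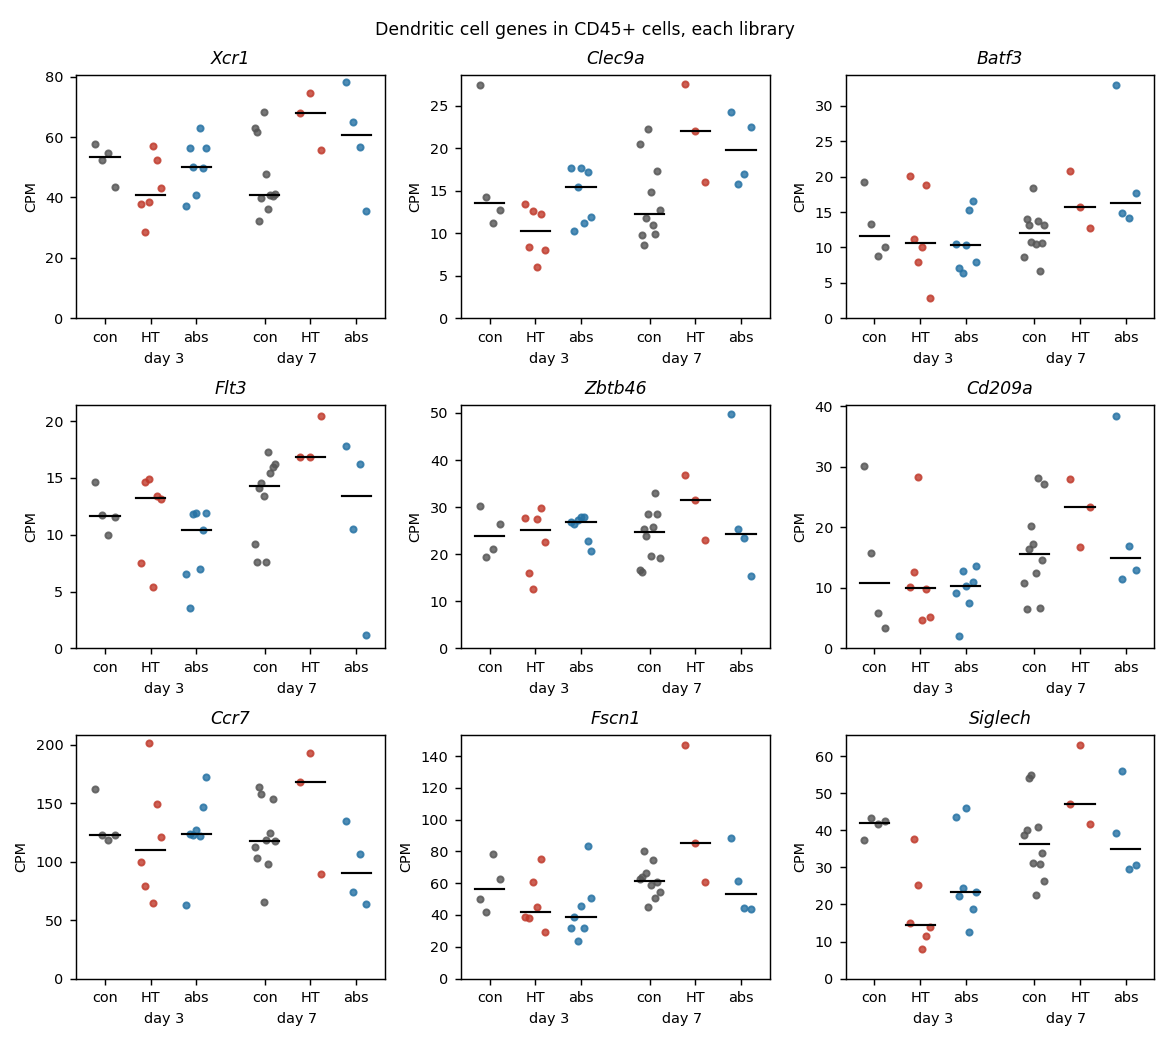
TMM-scaled CPM of the 9 dendritic cell genes in each CD45+ library (points), with the group median (line), for control (con), histotripsy-treated (HT) and histotripsy-abscopal (abs) tumors on days 3 and 7. In the Siglech panel 5 of the 6 day 3 histotripsy-treated libraries lie below all 4 controls, while the groups of the other 8 genes overlap.

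Of all 10264 genes tested in that comparison, 6.21% were called higher and 1.59% lower. The median over all genes was -0.01, and with library totals in place of TMM scaling it was -0.22, with 414 genes called higher and 663 lower in place of 637 and 163, and Siglech at -1.40 (adjusted p = 0.0129, edgeR). The call for Siglech was close to the threshold. It was lost when any of 12 of the 17 day 3 libraries was left out: control replicates 1 to 4, histotripsy-treated replicates 1, 4, 5 and 6, or histotripsy-abscopal replicates 2, 3, 6 and 7, with adjusted p between 0.0503 and 0.107 and log2 fold changes between -1.20 and -1.0 in those fits. A fit of only the 6 histotripsy-treated and 4 control libraries gave an adjusted p of 0.0512 (edgeR). Without histotripsy-treated replicate 3, the library that stood apart, the log2 fold change was -1.27 (adjusted p = 0.0467, same test).

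The histotripsy-abscopal tumors of day 3 did not differ in Siglech beyond the threshold, with a log2 fold change of -0.61 against control (95% interval -1.28 to 0.06, adjusted p = 0.667, edgeR) and 5 of 7 libraries below each control. Histotripsy-treated against histotripsy-abscopal tumors gave -0.55 (95% interval -1.21 to 0.11, adjusted p = 0.384, edgeR), so a difference between the treated and the distant tumor was not shown for Siglech. The comparisons of histotripsy-treated and of histotripsy-abscopal tumors with control use the same 4 control libraries.

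On day 7 the order of the Siglech levels was different. Histotripsy-treated libraries held 47.3, 63.0 and 41.8 CPM, histotripsy-abscopal libraries 39.4, 56.1, 29.7 and 30.7 CPM, and the 10 control libraries 22.4 to 54.9 CPM with a median of 36.4. The groups overlapped, and the log2 fold change of histotripsy-treated against control tumors was 0.41 (95% interval -0.07 to 0.88, adjusted p = 1.0, edgeR). The change of effect from day 3 to day 7 was tested as an interaction over the 34 libraries. The interaction contains the day 3 difference from control with its sign turned. For histotripsy-treated against control tumors it was 1.60 on the log2 scale for Siglech (standard error 0.433, 95% interval 0.72 to 2.47, adjusted p = 0.0377, edgeR), a 3.02-fold shift of the ratio to control. In that test 2.68% of 11251 genes passed, 0.258% with a higher and 2.42% with a lower effect on day 7, and Siglech was the 1 of the 9 dendritic cell genes that did. The call was lost without any of 8 libraries (day 3 control replicates 2, 3 and 4, day 3 histotripsy-treated replicate 6, day 7 histotripsy-treated replicates 1, 2 and 3, and day 7 control replicate 10), with adjusted p between 0.0565 and 0.109 in those fits, and in libraries with at least 1000000 counts (1.41, adjusted p = 0.115, edgeR).

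Other genes of a pDC list moved in the same comparison. The list has 15 genes, Siglech among them, and 12 were tested. Of these 4 passed the threshold in histotripsy-treated against control tumors on day 3, all of them lower, where 1.59% of all genes were called lower. They were Siglech, Ccr9, Klk1 and Cox6a2, a subunit of mitochondrial cytochrome c oxidase whose transcript is known from heart, skeletal muscle and pDC. Cox6a2 was named after its values were seen. The median log2 fold change of the 12 genes was -0.80, against -0.01 over all genes tested.

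Ccr9 held 61.3, 44.9, 37.0 and 43.7 CPM in the control libraries of day 3. Histotripsy-treated libraries ran from 10.1 to 30.7 CPM with a median of 15.5, and histotripsy-abscopal libraries from 14.4 to 35.2 CPM with a median of 21.2. Both ranges lay below the controls without overlap. How many of all genes separated the groups in this way was not counted, here or for the genes and sums below. Such separation was therefore not set against a background. The log2 fold change of histotripsy-treated against control tumors was -1.26, with a standard error of 0.301 (edgeR, adjusted p = 0.0137), and it passed whichever of the 17 libraries was left out.

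Klk1 held 17.4, 18.4, 22.3 and 29.9 CPM in control libraries, 2.19 to 11.9 CPM (median 8.47) in histotripsy-treated libraries and 3.64 to 13.7 CPM (median 9.69) in histotripsy-abscopal libraries. Here too each control library lay above all libraries of both other groups. Histotripsy-treated against control tumors gave -1.57 on the log2 scale (edgeR, standard error 0.384, adjusted p = 0.0159), a call that was lost without control replicate 4 (-1.37, adjusted p = 0.0765).

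Cox6a2 held 17.4, 13.3, 14.7 and 17.5 CPM in control libraries and 3.35 to 11.2 CPM (median 5.15) in histotripsy-treated libraries, without overlap. The histotripsy-abscopal libraries ran from 3.12 to 17.6 CPM (median 5.10), with replicate 1 above the controls. The log2 fold change of histotripsy-treated against control tumors was -1.36 (adjusted p = 0.0459, edgeR), and it passed in 5 of 17 fits with a library removed. The other 12 fits, without control replicates 1 to 4, histotripsy-treated replicates 1, 3, 4, 5 and 6 or histotripsy-abscopal replicates 3, 4 and 5, gave adjusted p between 0.0508 and 0.131. The counts of Ccr9, Klk1 and Cox6a2 are less certain than those of Siglech, since each gene overlaps an annotated gene on the other strand and the strand setting of the counting is not given in the sources used here. Ccr9 also overlaps Gm17200 and Gm17020 on its own strand. In the histotripsy-treated libraries of day 3 Klk1 rested on only 3 to 17 counts and Cox6a2 on 4 to 16.

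**Figure D2:**
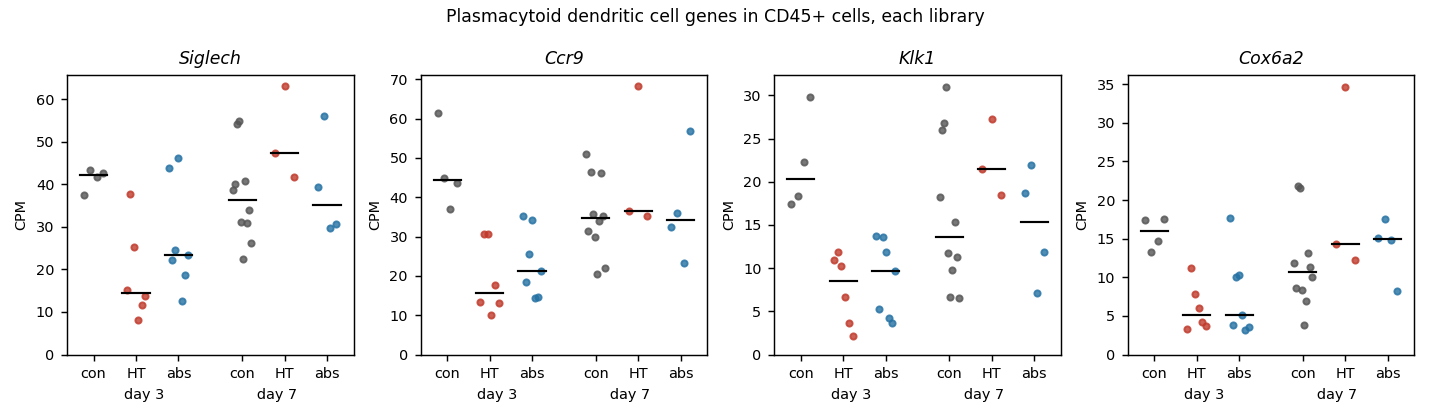
TMM-scaled CPM of Siglech, Ccr9, Klk1 and Cox6a2 in each CD45+ library (points), with the group median (line), for control (con), histotripsy-treated (HT) and histotripsy-abscopal (abs) tumors on days 3 and 7. On day 3 all histotripsy-treated libraries lie below all control libraries for Ccr9, Klk1 and Cox6a2, and on day 7 the groups overlap in each panel.

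The remaining pDC genes did not pass and went in both directions. Pacsin1, a membrane-bending adaptor, was at -1.19 on the log2 scale (adjusted p = 0.0639) and Ly6d, a surface protein of lymphoid precursors that pDC share, at -0.99 (adjusted p = 0.0642, edgeR for both). Of the 12 tested genes 9 were below 0, with Bst2, Spib and Runx2 among them, and 3 were above. Those above were Tcf4 itself (0.01), Tlr7, a sensor of RNA (0.22), and Irf7, a transcription factor of the interferon response (0.46). Their adjusted p was 0.988, 0.594 and 0.348 (edgeR). Cd300c, Tlr9 and Ptprcap were not tested because of low counts.

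In histotripsy-abscopal against control tumors on day 3, 0 of the 12 tested pDC genes passed, as did 0% of all genes (edgeR, with 796 genes or 7.76% at an unadjusted p under 0.05, 12 genes called by DESeq2 and 0 by limma-voom). Of the 12 genes 5 had an unadjusted p under 0.05, and their median log2 fold change was -0.57. Klk1 was at -1.39 (adjusted p = 0.339), Cox6a2 at -1.11 (0.554) and Ccr9 at -1.01 (0.444, edgeR for all). Between histotripsy-treated and histotripsy-abscopal tumors, where 5.44% of genes were called (4.87% higher), 0 of the 12 pDC genes and 0 of the 9 dendritic cell genes passed, and the median of the pDC list was -0.16. The 95% intervals of that difference ran from -0.96 to 0.59 for Klk1 and from -0.83 to 0.32 for Ccr9.

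On day 7 the pDC list had a median of 0.25 in histotripsy-treated against control tumors, with 0 genes called. The interaction of day and histotripsy-treated against control called Klk1 (2.04, adjusted p = 0.0437), Cox6a2 (2.04, adjusted p = 0.0483) and Ccr9 (1.64, adjusted p = 0.0248) beside Siglech (edgeR for all), each with a higher effect on day 7. That is 4 of 12 tested genes, against 0.258% of all genes called in this direction. They are the same 4 genes that were called on day 3. The interaction contains that day 3 difference with its sign turned, so these calls are not separate support for it. In fits with 1 of the 34 libraries left out, Ccr9 passed in 31 (lost without day 3 control replicate 1 or day 7 histotripsy-treated replicate 1 or 2), Klk1 in 18 and Cox6a2 in 7, with adjusted p of at most 0.0958, 0.141 and 0.177 where they did not. Klk1 was lost without any library of day 3 control or day 7 histotripsy-treated tumors, day 3 histotripsy-treated replicate 3, 5 or 6, or day 7 control replicate 5, 6, 7, 8, 9 or 10. On day 7 Klk1 held 18.3 to 31.0 CPM in control replicates 1 to 4 and 6.57 to 15.4 CPM in control replicates 5 to 10. Histotripsy-treated libraries held 21.5, 27.3 and 18.4 CPM. For Siglech, Ccr9 and Cox6a2 the ranges of these control replicates overlapped. The part of this spread among controls in the interaction was not tested. Cox6a2 passed without day 3 histotripsy-treated replicate 2, day 3 histotripsy-abscopal replicate 1, 6 or 7, day 7 histotripsy-abscopal replicate 4, or day 7 control replicate 3 or 4, and was lost without any other library. In libraries with at least 1000000 counts none of the 3 passed (adjusted p = 0.0900 for Ccr9, 0.0869 for Klk1 and 0.207 for Cox6a2, edgeR), and with limma-voom Cox6a2 did not (0.0544).

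**Figure D3:**
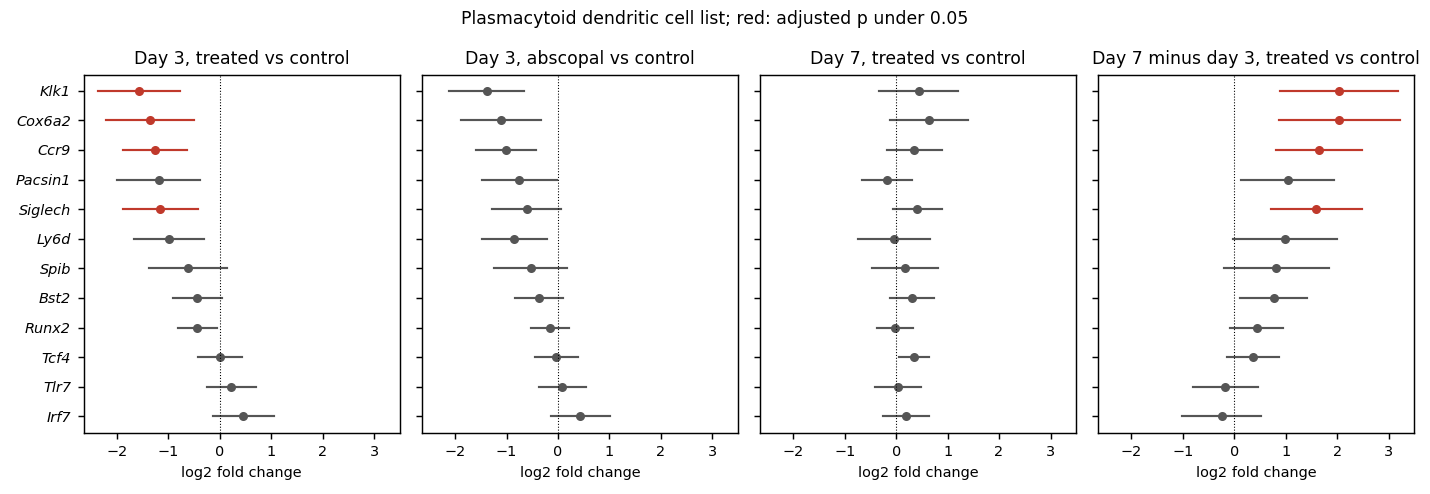
Log2 fold changes (points) and 95% intervals (bars) of the 12 tested genes of the pDC list from edgeR in 4 comparisons of CD45+ cells, with genes past an adjusted p of 0.05 in red. The genes Klk1, Cox6a2, Ccr9 and Siglech are red and below 0 in day 3 histotripsy-treated against control tumors, and red and above 0 for the change of that effect from day 3 to day 7.

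Genes of other leukocytes moved in histotripsy-treated against control tumors on day 3, where 6.21% of all genes were called higher and 1.59% lower. Of the 8 tested genes of a neutrophil list, 5 were called higher in histotripsy-treated than in control tumors on day 3 (median log2 fold change 2.48). The summed level of the 10 listed genes, none of them at 0 in all libraries of a group, ran from 360 to 2579 CPM in control, 1290 to 35345 in histotripsy-treated and 847 to 2795 in histotripsy-abscopal libraries, and the highest was histotripsy-treated replicate 3. Of the 10 T cell genes, all tested, 3 were called lower (median -0.62), and their sum ran from 1918 to 2455 CPM in control and from 585 to 1726 CPM in histotripsy-treated libraries, without overlap. The 4 tested erythroid genes had a median of 2.95 with 0 called and all 4 at an unadjusted p under 0.05 (edgeR), and their list summed to between 69.1 and 9514 CPM in histotripsy-treated and between 65.8 and 909 CPM in control libraries. Of the 6 mast cell and basophil genes 1 was tested, Hdc, and it was called higher (2.74). That list summed to between 389 and 1806 CPM in histotripsy-treated and between 71.4 and 186 CPM in control libraries, where Mcpt8, Fcer1a, Ms4a2 and Mcpt4 were at 0 in every library.

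In histotripsy-treated replicates 1 to 6 of day 3 the neutrophil sums were 2095, 8782, 35345, 4670, 1290 and 5055 CPM, beside 15.1, 37.7, 25.2, 8.05, 11.6 and 13.8 CPM of Siglech. Replicates 1 and 5 had neutrophil sums within the range of the controls, and the highest Siglech levels of the group were in replicates 2 and 3, which had the highest sums. The summed level of the pDC list ran from 426 to 844 CPM (median 610) in histotripsy-treated, 519 to 803 CPM (median 723) in histotripsy-abscopal and 686 to 910 CPM (median 823) in control libraries, and these ranges overlapped. Histotripsy-treated replicate 1, at 844 CPM, lay above 3 of the 4 controls. The part of the other leukocytes, T cells included, in the levels of Siglech, Ccr9, Klk1 and Cox6a2 was not tested.

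**Figure D4:**
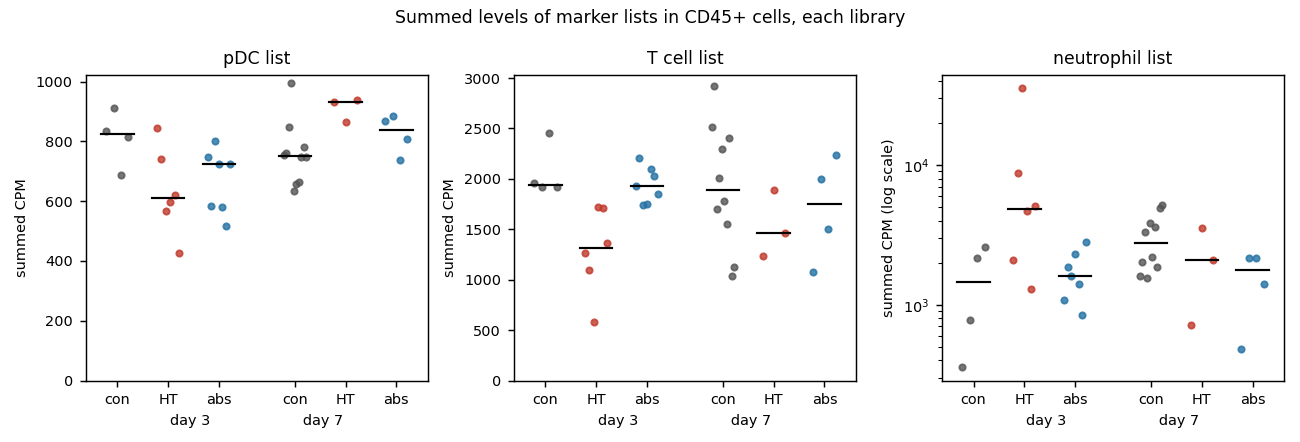
Summed TMM-scaled CPM of the pDC, T cell and neutrophil lists in each CD45+ library (points), with the group median (line), for control (con), histotripsy-treated (HT) and histotripsy-abscopal (abs) tumors on days 3 and 7; the neutrophil axis is logarithmic. On day 3 the histotripsy-treated libraries have the widest range of neutrophil sums, up to 35345 CPM, and T cell sums that all lie below the controls.

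The cDC1 genes Xcr1, Clec9a and Batf3 did not pass the threshold in any comparison. Xcr1, the receptor for the chemokine XCL1 of NK and T cells, held 57.6, 52.5, 54.6 and 43.3 CPM in the control libraries of day 3, 28.6 to 57.0 CPM (median 40.8) in histotripsy-treated and 37.2 to 63.1 CPM (median 50.1) in histotripsy-abscopal libraries. The groups overlapped. Histotripsy-treated against control tumors gave -0.27 on the log2 scale (95% interval -0.65 to 0.12, adjusted p = 0.416, edgeR). On day 7 Xcr1 held 68.0, 74.6 and 55.7 CPM in histotripsy-treated libraries and 32.3 to 68.4 CPM (median 40.9) in control libraries, a log2 fold change of 0.48 with an interval of 0.04 to 0.91.

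Clec9a, whose product binds exposed actin of dead cells, held 27.4, 14.3, 11.2 and 12.7 CPM in control libraries of day 3, with replicate 1 far above the rest. Histotripsy-treated libraries ran from 6.04 to 13.4 CPM (median 10.3) and histotripsy-abscopal libraries from 10.2 to 17.6 CPM (median 15.5). The lower control libraries overlapped both groups. In histotripsy-treated against control tumors the log2 fold change was -0.65 (95% interval -1.24 to -0.06, adjusted p = 0.167, edgeR). On day 7 it was 0.63 (95% interval 0.11 to 1.15, adjusted p = 1.0), with 27.6, 22.1 and 16.0 CPM against 8.63 to 22.2 CPM (median 12.2) in control libraries. Of the 9 genes Clec9a had the next largest interaction after Siglech, 1.29 (95% interval 0.52 to 2.07), which did not pass (adjusted p = 0.0579, edgeR). Clec9a did pass in 7 of 40 alternatives, with DESeq2 and library totals among them. Part of its reads may belong to Clec1b, which overlaps it on the same strand of chromosome 6 (129408862 to 129424763).

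Batf3, the transcription factor that cDC1 require, held 19.2, 13.3, 8.81 and 10.1 CPM in control libraries of day 3 and 2.91 to 20.1 CPM (median 10.6) in histotripsy-treated libraries, a log2 fold change of -0.07. On day 7 the histotripsy-abscopal libraries held 32.9, 14.9, 14.1 and 17.7 CPM and the control libraries 6.60 to 18.5 CPM (median 12.0). All 4 histotripsy-abscopal libraries lay above 9 of the 10 controls. Against control this was a log2 fold change of 0.77 (95% interval 0.26 to 1.27, unadjusted p = 0.00443 from edgeR), and it did not pass (adjusted p = 0.531, edgeR). Over its 25 alternatives the log2 fold change ran from 0.34 to 0.91, and 0 of them passed. Histotripsy-treated libraries held 20.8, 15.8 and 12.7 CPM, 0.44 above control on the log2 scale with an interval that included 0.

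The rest of a cDC1 list of 14 genes, 13 of them tested, was read in the same way. On day 3, 1 gene was called in histotripsy-treated against control tumors, Cd24a, which rose by 2.02 on the log2 scale (adjusted p = 0.00527, edgeR) and which granulocytes also express. That is 7.69% of the 13 genes, near the 6.21% of all genes called higher. The median of the list was -0.27. In the interaction Gcsam, a signaling adaptor known from germinal center B cells, was called with 2.10 (adjusted p = 0.0217) and Irf8, a transcription factor of cDC1 and pDC, with 0.71 (adjusted p = 0.0411, edgeR for both), and Cd24a was called in the other direction, with -2.01 (adjusted p = 0.0409). With 1 library left out Gcsam passed in 31, Irf8 in 18 and Cd24a in 23 of 34 fits, with adjusted p of at most 0.105, 0.135 and 0.171 in the others. Over all 40 alternatives, these fits included, they passed in 35, 21 and 26. Gcsam was lost without day 3 control replicate 2 or day 7 histotripsy-treated replicate 1 or 3. Its counts were low, with 2 to 6 in histotripsy-treated libraries of day 3 and 2 to 18 in control libraries of day 7, which limits its precision. Irf8 was lost without any day 3 control or day 7 histotripsy-treated library, day 3 histotripsy-treated replicate 2, 3, 4 or 6, day 3 histotripsy-abscopal replicate 3, or day 7 control replicate 6, 7, 9 or 10. Cd24a was lost without day 3 control replicate 1, 2 or 3, day 3 histotripsy-treated replicate 2, 3 or 6, day 7 histotripsy-treated replicate 1 or 3, or day 7 control replicate 7, 9 or 10. Irf8 was named after its values were seen. Irf8 ran from 531 to 619 CPM in control and from 344 to 628 CPM in histotripsy-treated libraries on day 3, and from 401 to 608 CPM against 584 to 671 CPM on day 7.

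Flt3, the receptor through which FLT3 ligand drives dendritic cell development, held 14.6, 11.7, 9.98 and 11.6 CPM in control libraries of day 3. It ran from 5.37 to 14.9 CPM (median 13.3) in histotripsy-treated and from 3.52 to 11.9 CPM (median 10.4) in histotripsy-abscopal libraries. Histotripsy-treated against control tumors differed by -0.04 on the log2 scale (95% interval -0.70 to 0.63) on day 3 and 0.46 (95% interval -0.17 to 1.08) on day 7. On day 7 the 3 histotripsy-treated libraries (16.8, 16.8 and 20.5 CPM) lay above 9 of the 10 control libraries, and histotripsy-abscopal replicate 4 held a single count.

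Zbtb46, a transcription factor of conventional dendritic cells that monocytes lack, held 30.2, 19.4, 21.1 and 26.5 CPM in control libraries and 12.6 to 29.9 CPM (median 25.0) in histotripsy-treated libraries on day 3. This was a difference of -0.08 on the log2 scale (95% interval -0.53 to 0.37), the narrowest interval around 0 of the 9 genes in that comparison after that of Xcr1. On day 7 it was 0.36 (95% interval -0.15 to 0.88). In a list of 11 genes of conventional dendritic cells as a class, 10 of them tested, Dpp4, a surface peptidase that T cells also carry, was called lower in histotripsy-treated tumors on day 3. That is 1 of 10 genes, where 1.59% of all genes were called lower. Dpp4 was at -0.78 on the log2 scale (adjusted p = 0.0493, edgeR), a call that passed in 2 of the 17 fits without 1 library and had adjusted p between 0.0510 and 0.194 in the others.

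Cd209a, a C-type lectin of cDC2 and monocyte-derived cells, had the widest interval of the 9 genes in histotripsy-treated against control tumors on day 3. Its control libraries held 30.2, 15.8, 5.87 and 3.36 CPM, and the histotripsy-treated libraries 4.70 to 28.3 CPM (median 9.90). On the log2 scale the difference was -0.13 with an interval from -1.26 to 1.01, so changes in either direction up to these bounds were not excluded. On day 7 it was 0.49 (95% interval -0.21 to 1.19), with 27.9, 16.8 and 23.4 CPM in histotripsy-treated and 6.49 to 28.2 CPM (median 15.5) in control libraries. Of a cDC2 list of 13 genes, 11 of them tested, Klf4, a transcription factor shared with monocytes, was called higher in histotripsy-treated tumors on day 3 (0.84, adjusted p = 0.00756, edgeR). That is 9.09% of the 11 genes, near the 6.21% of all genes called higher. Klf4 was at 0.81 in histotripsy-abscopal tumors (adjusted p = 0.324, edgeR). The change of its histotripsy-treated effect from day 3 to day 7 was -1.01 (adjusted p = 0.0446, edgeR), which passed in 17 of 34 fits with 1 library left out and did not with limma-voom or library totals (0.0574 and 0.106). It was lost, with adjusted p of at most 0.198, without day 3 control replicate 2, 3 or 4, day 3 histotripsy-treated replicate 2 or 3, day 3 histotripsy-abscopal replicate 4 or 6, any day 7 histotripsy-treated library, day 7 histotripsy-abscopal replicate 2, or day 7 control replicates 5 to 10 in turn. On day 7 Klf4 held 174 to 244 CPM in control replicates 1 to 4 and 320 to 427 CPM in control replicates 5 to 10. Histotripsy-treated libraries held 228 to 287 CPM.

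Ccr7 and Fscn1, the genes of mature dendritic cells followed in each library, were not called on either day. Ccr7 held 162, 122, 119 and 123 CPM in the control libraries of day 3, 64.4 to 201 CPM (median 110) in histotripsy-treated and 62.7 to 173 CPM (median 124) in histotripsy-abscopal libraries. The log2 fold change of histotripsy-treated against control tumors was -0.14 (95% interval -0.69 to 0.41). Naive and central memory T cells and B cells also express Ccr7. On day 7 it held 168, 193 and 89.7 CPM in histotripsy-treated, 135, 73.6, 107 and 63.8 CPM in histotripsy-abscopal and 65.5 to 164 CPM (median 118) in control libraries. Between histotripsy-treated and histotripsy-abscopal tumors its log2 fold change was 0.63 (95% interval 0.03 to 1.22, adjusted p = 1.0, edgeR).

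Fscn1 held 50.3, 41.8, 78.7 and 62.7 CPM in control libraries and 29.1 to 75.0 CPM (median 41.7) in histotripsy-treated libraries on day 3, a log2 fold change of -0.29 (95% interval -0.89 to 0.32). On day 7 the histotripsy-treated libraries held 147, 85.1 and 61.0 CPM, of which 2 lay above each of the 10 controls (45.3 to 80.0 CPM, median 61.5). Against control the log2 fold change was 0.67 (95% interval 0.23 to 1.12, unadjusted p = 0.00454 from edgeR), without passing (adjusted p = 1.0, edgeR). Against histotripsy-abscopal tumors (88.3, 61.4, 44.6 and 43.7 CPM) it was 0.70 (95% interval 0.16 to 1.23, adjusted p = 1.0, edgeR). Over 25 alternatives the value against control ran from 0.21 to 0.94, and that against histotripsy-abscopal tumors from 0.24 to 0.97. In the mature list of 22 genes, 19 of them tested, 0 genes were called against control on either day, and the median in histotripsy-treated tumors was -0.16 on day 3 and 0.23 on day 7.

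All 9 genes had a log2 fold change below 0 in histotripsy-treated against control tumors on day 3 (from -1.16 to -0.04, median -0.14), and all 9 had one above 0 on day 7 (from 0.29 to 0.67, median 0.46). The medians over all genes tested were -0.01 on both days. With limma-voom Cd209a turned to 0.21 on day 3, and each of the other 8 signs held with DESeq2 and limma-voom. Leaving out 1 library turned the day 3 sign of Batf3, Flt3, Cd209a or Zbtb46 in some fits, which reached 0.14, 0.11, 0.50 and 0.04. On day 3 intervals excluded 0 for 2 genes, Siglech and Clec9a, where 23.9% of all genes had an unadjusted p under 0.05, and on day 7 for 3, Xcr1, Clec9a and Fscn1. Other leukocytes moved between these days as well. The 8 tested neutrophil genes were all above 0 on day 3 (median 2.48), and the 9 tested on day 7 were all below 0 (median -0.55) with 0 called. For the change between days all 10 were below 0 (median -2.93), 9 had an unadjusted p under 0.05 (edgeR) and 1, Mmp9, was called. Their part in the values of the 9 genes was not tested. The 9 genes are not independent, since the libraries are the same for all of them.

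**Figure D5:**
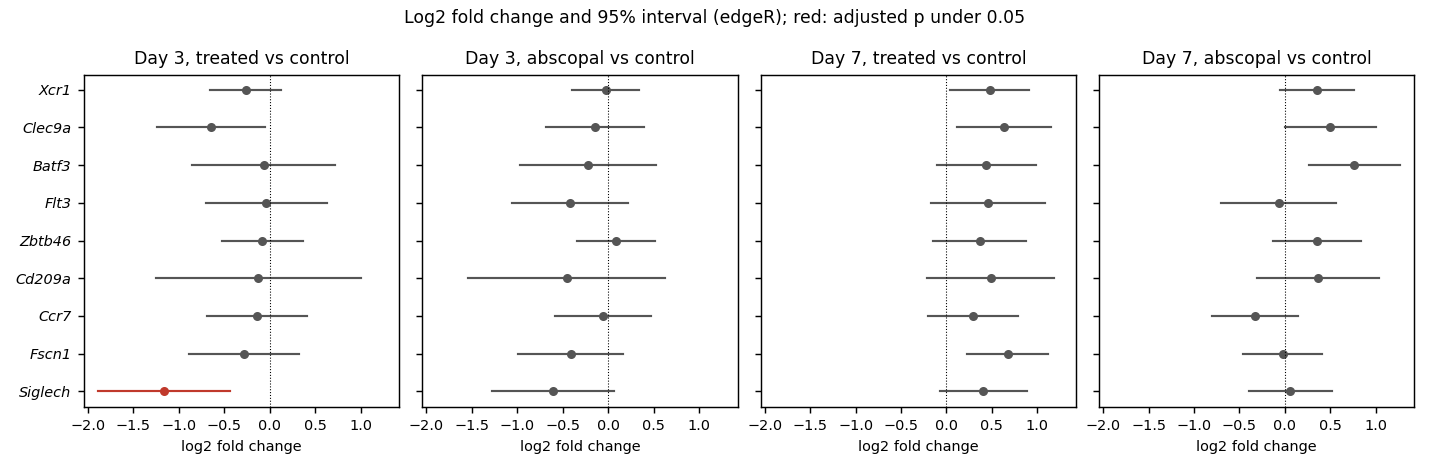
Log2 fold changes (points) and 95% intervals (bars) of the 9 dendritic cell genes from edgeR in CD45+ cells, for histotripsy-treated and histotripsy-abscopal against control tumors on each day, with genes past an adjusted p of 0.05 in red. Siglech in histotripsy-treated tumors on day 3 is the one red point, and all 9 points of histotripsy-treated tumors lie left of 0 on day 3 and right of 0 on day 7.

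On day 7 no gene of the 10817 tested passed in any comparison with edgeR (0%), and the unadjusted p was under 0.05 for 341 genes (3.15%) in histotripsy-treated against control, 806 (7.45%) in histotripsy-abscopal against control and 291 (2.69%) in histotripsy-treated against histotripsy-abscopal tumors. DESeq2 and limma-voom also called 0 genes. Of the 9 dendritic cell genes 3, 2 and 2 had an unadjusted p under 0.05 in these comparisons. In the interaction for histotripsy-abscopal against control tumors 0% of genes passed (edgeR, 729 genes or 6.48% at an unadjusted p under 0.05), and the estimate was 0.69 for Siglech (95% interval -0.13 to 1.51) and 0.99 for Batf3 (0.10 to 1.87).

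Ligands and growth factors of dendritic cells were read from a list of 12 genes, of which 6 were tested in CD45+ cells. Flt3l, which encodes the ligand of FLT3, was at -0.25 on the log2 scale in histotripsy-treated against control tumors on day 3 and at 0.08 on day 7. Xcl1, which encodes the ligand of XCR1, was at -0.76 and 0.08. Neither passed. Csf1, the growth factor of macrophages, rose by 2.26 (adjusted p = 0.00880) and Ccl3, a chemokine of myeloid cells, by 1.62 (adjusted p = 0.00399) on day 3 (edgeR for both). The change of their effects to day 7 was -2.87 for Csf1 and -1.77 for Ccl3 (adjusted p = 0.0273 and 0.0306, edgeR), which passed in 29 and 28 of 34 fits with 1 library left out. Both were lost without day 3 control replicate 1 or 2, day 3 histotripsy-treated replicate 3 or day 7 histotripsy-treated replicate 1 or 3, and Ccl3 also without day 3 histotripsy-treated replicate 6, with adjusted p of at most 0.152 and 0.141. Ccl19 and Ccl21a, the ligands of CCR7, were not tested because of low counts.

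The place of each gene among the sorted cells was read from the CD45- libraries. Over all 36 of them Clec9a had 1 count, Siglech and Ccr7 had 2, Flt3 had 7 and Xcr1 had 15. Cd209a had 0, which allows up to 3 counts or 0.0342 CPM over these libraries. Batf3 had 92 counts, with at most 7 in a library. Fscn1 and Zbtb46 were present in each CD45- library, with medians of 32.8 and 7.89 CPM against 56.5 and 25.7 CPM in CD45+ libraries, so transcripts of these genes were not particular to CD45+ cells. The sum of 8 melanoma genes in CD45+ libraries ran from 91.9 to 2267 CPM in histotripsy-abscopal tumors on day 3 and reached at most 485 CPM in the other groups.

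After removal of the group means, the 9 genes varied together only in part across the 34 CD45+ libraries. Of their 36 pairs 30 had a Pearson correlation of log2 CPM above 0, with a median of 0.13, and 1 pair, Flt3 with Cd209a (0.53), lay above 0.5. Ccr7 and Fscn1 had 0.49, Xcr1 and Clec9a 0.13, and Xcr1 and Siglech -0.45. These values describe libraries that share depth and cell makeup. With the same measure over 10153 genes, those most like Siglech were Ccr9 (0.74), Klk1 (0.72) and Klra17 (0.70), of which Ccr9 and Klk1 are on the pDC list. The nearest to Cd209a were Clec10a (0.74), Dapk1 (0.72) and Wdfy4 (0.71), and the nearest to Batf3 were Naaa (0.73), Slamf8 (0.71) and Agpat1 (0.70). Ccr7 was nearest to Pmaip1 (0.72), Arl5b (0.72) and Uap1 (0.71), and Fscn1 to Tyk2 (0.66), Tbc1d4 (0.64) and Gyg (0.64). Flt3 was nearest to Pon2 (0.85), Tpra1 (0.80) and B3galnt2 (0.78), and Zbtb46 to Slc25a13 (0.73), Ptcd2 (0.68) and Sqle (0.62). Xcr1 was nearest to Fip1l1 (0.67), Tmem198 (0.67) and Cbx8 (0.66), and Clec9a to Arhgap6 (0.63), Tbc1d1 (0.63) and Sox4 (0.56).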

How the data were processed

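QuantSeq libraries of flow-sorted CD45+ and CD45- cells were read from the count tables deposited by the authors, who trimmed the reads with Trim Galore 0.5.0, aligned them with STAR 2.6.0, collapsed unique molecular identifiers and counted them per gene of GRCm38 with featureCounts. The deposited counts are whole numbers without normalization. A line without a gene name in each CD45+ table, which holds column totals, was left out. Each of the 2 CD45+ tables was fitted with edgeR 4.0.16 in R 4.3.3 (TMM scaling, filterByExpr with minimum count 10 and total 15, quasi-likelihood test, a term per group, Benjamini-Hochberg threshold 0.05 over all genes tested), and the difference between days was an interaction in a fit of all 34 CD45+ libraries. Correlations used log2 of CPM plus 1. Replicates of a group differed by more than sampling noise (smallest chi-square per degree of freedom 2.44). The code was tested on simulated data.

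The dendritic cell genes and all lists were chosen with earlier results of these data known. All 9 genes are named in each comparison; so are, per dendritic cell list and comparison with control, up to 2 other called genes with the smallest p, and per gene the 3 most alike across libraries. Cox6a2, Irf8, Pacsin1, Ly6d, Tcf4, Tlr7, Irf7, Bst2, Spib, Runx2, Flt3l, Xcl1, Hdc, Mmp9, Clec10a and Cd80 were named after their values were seen. Gene positions are those of GENCODE on GRCm38, and promoters are from RefSeq on GRCm38.p6. The alternatives were DESeq2 1.42.0, limma-voom (limma 3.58.1), library totals, no filter on low counts, the replicate number as a block, only the groups compared, both days in 1 fit, libraries with at least 1000000 counts, and each library left out in turn. Figures were drawn with matplotlib 3.10.9.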

Additional observations from a re-analysis of the deposited data

Results flagged for a closer look

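The effect of histotripsy on Siglech differed between the days in the test of the difference itself, a call close to the threshold: the change of the log2 fold change of histotripsy-treated against control tumors from day 3 to day 7 was 1.60 (quasi-likelihood test of edgeR, adjusted p = 0.0377). This call was lost in 8 of 34 fits with 1 library left out (adjusted p 0.0565 to 0.109), and in libraries with at least 1000000 counts (1.41, adjusted p = 0.115).

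Of 45 sets of a gene and a group of 4 to 10 libraries that were checked for a library far from the rest by Dixon's ratio, 2 had one, and chance gives about 1 in 20. Control replicate 1 on day 3 held 162 CPM of Ccr7, where the other 3 controls held 119 to 123 CPM. Histotripsy-treated replicate 3 on day 3 held 28.3 CPM of Cd209a, where the other 5 libraries held 4.70 to 12.6 CPM; this is also the library with the highest neutrophil sum.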

How the results depend on the processing

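Counts of called genes moved under several alternatives. For histotripsy-treated against control tumors on day 3, Siglech, the 1 call among the 9 genes, became 0 with the replicate block and 0 with only the 2 groups compared, and 0 to 1 with 1 library left out. The 8 other dendritic cell genes called became 13 with library totals, 14 without a filter on low counts and 5 to 9 with 1 library left out (5 without control replicate 4), and the 4 called genes of the pDC list became 7 with library totals and 1 to 4 with 1 library left out. For histotripsy-abscopal against control on day 3, 0 other dendritic cell genes became 1 with DESeq2 and 6 without the filter, and for histotripsy-treated against histotripsy-abscopal tumors 5 became 11 without the filter and 4 to 9 with 1 library left out. On day 7, without the filter, 1 of the 9 genes (Fscn1, adjusted p = 0.0387, edgeR) and 4 other genes were called in histotripsy-treated tumors, and 4 in histotripsy-abscopal tumors. For the change of the histotripsy-treated effect between days, the 1 call among the 9 genes became 2 with DESeq2, 2 with library totals, 3 without the filter, 0 with the block, 0 in libraries with at least 1000000 counts and 0 to 2 with 1 library left out, and the 9 other genes became 4 with limma-voom, 16 without the filter, 0 with the block, 4 in the deeper libraries and 0 to 9 with 1 library left out. For the histotripsy-abscopal effect, 1 other gene was called without the filter. The causes were not tested.

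Signs turned for values near 0. On the log2 scale, Cd209a on day 3 (histotripsy-treated against control) was 0.21 with limma-voom and Zbtb46 (histotripsy-abscopal against control) -0.0049 with library totals. For histotripsy-abscopal against control on day 7, Flt3 was 0.058 and Siglech -0.31 with the block, and Fscn1 was 0.053 and Flt3 0.17 in the deeper libraries. For histotripsy-treated against histotripsy-abscopal on day 7, Zbtb46 was -0.018 with the block and -0.17 in the deeper libraries, where Xcr1 was -0.11. With 1 library left out, histotripsy-treated against control on day 3 ranged from -0.27 to 0.14 for Batf3, -0.12 to 0.11 for Flt3, -0.58 to 0.50 for Cd209a and -0.18 to 0.036 for Zbtb46. Histotripsy-abscopal against control on day 3 ranged from -0.11 to 0.034 for Xcr1, -0.28 to 0.16 for Clec9a, -0.16 to 0.054 for Ccr7, -0.84 to 0.17 for Cd209a and -0.0091 to 0.19 for Zbtb46. Histotripsy-treated against histotripsy-abscopal on day 3 ranged from -0.048 to 0.35 for Batf3, -0.29 to 0.050 for Ccr7, -0.058 to 0.36 for Fscn1 and -0.13 to 0.50 for Cd209a. Histotripsy-abscopal against control on day 7 ranged from -0.30 to 0.10 for Fscn1, -0.37 to 0.20 for Flt3, -0.26 to 0.54 for Cd209a, -0.12 to 0.51 for Zbtb46 and -0.15 to 0.17 for Siglech. Histotripsy-treated against histotripsy-abscopal on day 7 ranged from -0.023 to 0.30 for Xcr1, -0.12 to 0.35 for Clec9a, -0.58 to 0.093 for Batf3, -0.052 to 0.73 for Cd209a and -0.19 to 0.47 for Zbtb46. The change between days of the histotripsy-abscopal effect ranged from -0.20 to 0.44 for Zbtb46.

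Same-numbered libraries were taken as pairs only if all their deviations correlated above 0.1, which held in no comparison. The correlations ran from -0.215 to 0.36 in comparisons with control. Between histotripsy-treated and histotripsy-abscopal libraries they were all above 0, from 0.0193 to 0.316 on day 3 (3 of 6 above 0.1) and from 0.0809 to 0.33 on day 7 (2 of 3), and not every library correlated best with its own number (1 of 6 and 2 of 3 did). With the block, Siglech was -0.89 on day 3 (adjusted p = 0.0893, edgeR) and the change of its effect was 0.97 (adjusted p = 0.484), Ccr9, Klk1 and Cox6a2 no longer passed for the change between days, and 1256 genes were called on day 3 in place of 800. Without the filter 1244 genes were called, with only the 2 groups compared 451. Over its alternatives the adjusted p of Siglech on day 3 ran from 1.00e-05 to 0.107. Siglech rested on 12 to 54 counts in a histotripsy-treated library of day 3, which limits its precision, and intervals cover the spread between libraries.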

Other observations

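On day 3, with the treated tumor set against the abscopal one, 5 genes of the other dendritic cell lists were called, all higher in the treated tumor, where 4.87% of all genes were called higher. They were 1 of 13 tested cDC1, 1 of 11 cDC2 and 1 of 19 mature genes (7.69%, 9.09% and 5.26%), shares near that of all genes, and 2 of 6 ligands. Clec10a, a lectin of cDC2 and macrophages, rose by 0.87 on the log2 scale (adjusted p = 0.0356, lost in 8 of 17 fits with 1 library left out: histotripsy-treated replicate 1, 2, 3 or 6 or histotripsy-abscopal replicate 2, 3, 5 or 6, adjusted p up to 0.108) and Cd80, a costimulatory ligand of mature dendritic cells and other antigen-presenting cells, by 0.89 (adjusted p = 0.00681). Cd24a rose by 1.94, Ccl3 by 1.68 and Csf1 by 2.24 (edgeR for all). Cd24a ran from 177 to 1574 CPM in histotripsy-treated and from 123 to 209 CPM in histotripsy-abscopal libraries. The neutrophil sum, whose values are given above, moved with this comparison too, and its part in these genes was not tested.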
